A study of Caenorhabditis elegans with 10 samples.

Results

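The genes described here take fatty acids apart or build the peroxisome, the organelle in which part of that breakdown occurs. They were taken by name: the classes *acs*, *acdh*, *ech*, *acox*, *hacd*, *kat*, *cpt*, *maoc*, and *prx*, together with *daf-22* and *dhs-28*. Of the 73 genes with such a name, 61 passed a limit of 1 FPKM in 1 or more conditions, and 10509 of all 19985 genes did so. FPKM (fragments per kilobase, scaled to depth) is a count of reads corrected for transcript length and sequencing depth. A gene with several transcripts is represented by the most abundant one on average. Just inside this limit was *acs-21*, with a highest FPKM of 1.04. Just outside it were *cpt-4* with 0.875 and *acdh-4* with 0.856.

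The RNA came from intact N2 *C. elegans*, the wild-type strain, synchronized and fed OP50 bacteria at 20°C up to the first day of adulthood, and from lysates that also served ribosome profiling. The 5 conditions were 20°C with no cooling, 10°C for 2 hours, and that same step plus 4°C for 1 day, 3 days, or 5 days, each with 2 biological replicates. The 20°C animals were collected when the others were moved to 10°C. Without animals kept at 20°C for as long, time in the cold and the passing of time cannot be told apart. The treatment labels give 3 hours at 10°C instead, and 3 days at 4°C for the samples titled 5 days. The authors' table holds 1 value per transcript and condition, taken here to pool the replicates. There is thus no spread between replicates and no test.

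In β-oxidation, a fatty acid is first joined to coenzyme A and then loses carbon in rounds of dehydrogenation, hydration, a second dehydrogenation, and cleavage. Mitochondria receive long chains through the carnitine shuttle and run these steps for energy. Peroxisomes start the cycle with an oxidase instead of a dehydrogenase, and in *C. elegans* they shorten very long chains and the side chains of ascaroside pheromones. In the worm, much of this metabolism takes place in the intestine and hypodermis, where fat is stored.

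The classes differed in how many mRNAs were at least 2-fold lower after 5 days at 4°C than at 10°C. This held for all 7 *acox* oxidases, 9 of 16 *acs* synthetases, 6 of 10 hydratases, and 6 of 11 peroxins, and for 2 of 9 *acdh* dehydrogenases, 1 of 4 *cpt* genes, *hacd-1* but not *dhs-28*, and *daf-22* but not *kat-1*. From 10°C to 4°C day 1, 14 of the 61 genes were at least 2-fold lower (23.0%), against 5.42% of all genes past the limit. Another 3 were at least 2-fold higher (4.92%), against 5.49% of all genes. The change is the log2 ratio of FPKM + 0.1, which understates the change of genes with low values, and its median was -0.25 for the 61 genes and -0.09 for all genes. From day 1 to day 3, 20 of the 61 were at least 2-fold lower (32.8%), against 4.65% of all genes, and none was 2-fold higher, against 1.57%. With a pseudocount of 1 in place of 0.1, 10 were lower from day 1 to day 3, against 2.26% of all genes. From day 3 to day 5, 1 gene was 2-fold lower (1.64%), against 4.98% of all genes, and none was 2-fold higher, against 0.152%. Against 10°C, day 3 values were 2-fold lower for 30 of 61 genes (49.2%), where 10.8% of all genes were, and higher for *acs-12* and *acs-16*, where 6.39% of all genes were. Day 5 over 10°C uses the same 10°C column, and here the values of 33 of the 61 genes were at least 2-fold lower (54.1%), against 15.9% of all genes, and that of 1 gene was 2-fold higher, against 4.78%. The median log2 ratio over 10°C was -0.92 on day 3 and -1.197 on day 5 for the 61 genes, and -0.13 and -0.10 for all genes. The first cooling step, from 20°C to 10°C, left 1 gene 2-fold higher and none lower, against 1.27% and 0.933% of all genes.

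Genes with low levels dropped more often in the whole table, so the same counts were made within 2 classes of mean FPKM. Below a mean FPKM of 10, 24 of 33 genes (72.7%) were at least 2-fold lower at day 5 than at 10°C, against 28.2% of all genes of that class. At a mean FPKM of 10 or more, this held for 9 of 28 (32.1%), against 4.75% of all genes. For day 1 over 10°C, the shares were 30.3% against 10.3% in the lower class and 14.3% against 0.962% in the higher class. For day 3 over day 1, they were 48.5% against 7.56% and 14.3% against 2.01%. These classes were added after the data were seen. Every *acox* gene falls in the lower class and most *acdh* genes in the higher one, so the contrast between these steps was not separated from abundance.

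Tissue markers changed over the same period. Of 5 marker genes of the intestine, 4 had a ratio below 0 on day 1 (-0.88 to 0.38, over 10°C) and all 5 on day 5 (-1.80 to -0.59). Their summed FPKM was 118 at 20°C and 128 at 10°C, then 138, 126, and 70.4 on days 1, 3, and 5. This sum is mostly *act-5*, with 87.9 at day 3 and 71.8 at 10°C, while 4 of the 5 genes had a ratio below 0 at day 3 over 10°C (-1.396 to 0.29), with *ges-1* lowest and *vha-6* at -1.09. The hypodermis list of 4 summed to 289, 265, 321, 196, and 193 in the same order, with *rol-6* near 0 throughout and all 4 ratios below 0 at day 5 over 10°C (-1.88 to -0.44). Most of this sum is *col-19*, with 284 at 20°C. The body wall muscle list of 3 summed to 128, 129, 133, 123, and 66.4, the neuron list of 4 to 71.5, 73.3, 93.4, 95.4, and 92.8, and the germline list of 4 to 369, 380, 342, 364, and 372. The neuron sum is mostly *snb-1*, with 76.8 at day 5. Of the 4 neuron genes, 3 had a ratio below 0 at day 5 over 10°C (-0.65 to 0.56). This held for all 3 body wall muscle genes (-1.16 to -0.68) and for 2 of 4 germline genes (-0.31 to 0.13). Of all genes past the limit, 61.2%, 61.8%, and 57.4% had a ratio below 0 on days 1, 3, and 5, each over 10°C. In whole animals, fewer cells of a type and less RNA per cell cannot be told apart, and the part of tissue makeup in the changes below was not tested.

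**Figure D1:**
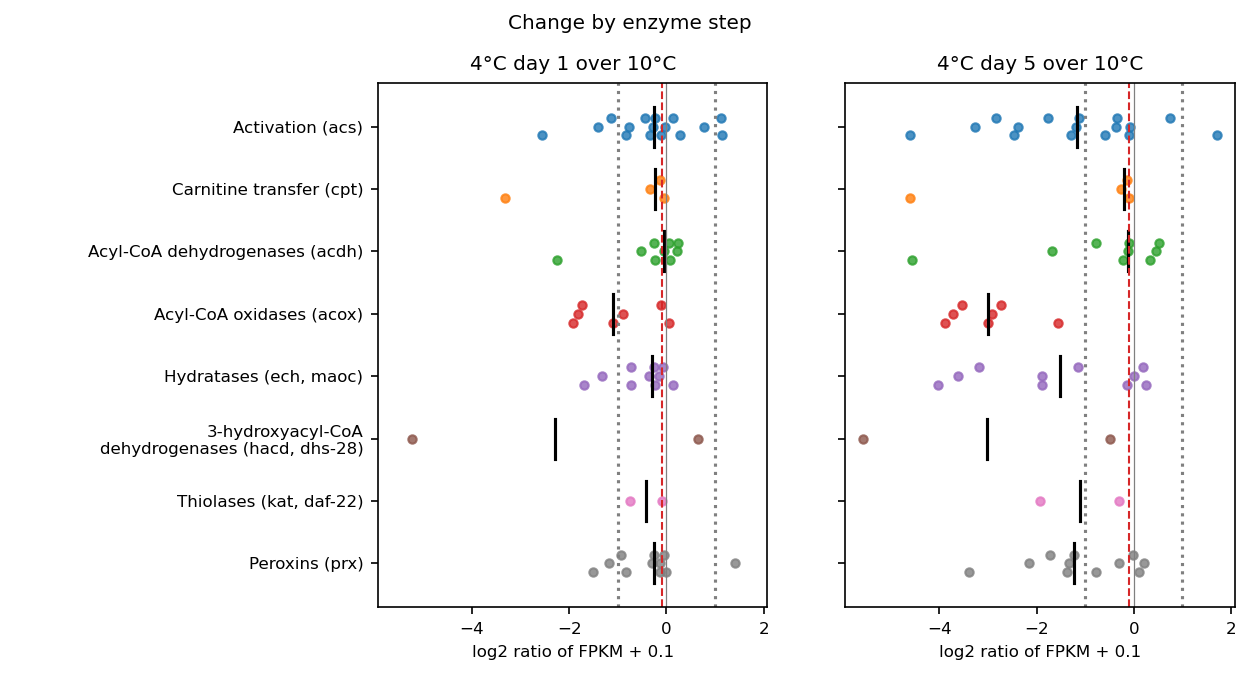
log2 ratios of FPKM + 0.1 for the 61 genes by enzyme step, at 4°C day 1 over 10°C (left) and 4°C day 5 over 10°C (right). Each point is a gene, black bars are medians of a step, the red dashed line is the median of all 10509 genes, and dotted lines mark 2-fold. The 7 oxidases had a median of -1.09 at day 1 and all lay past the 2-fold line at day 5, whereas the 9 dehydrogenases had medians of -0.05 and -0.11.

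Acyl-CoA synthetases, the *acs* genes, attach coenzyme A to fatty acids of different length and so commit them to breakdown or to lipid synthesis. Of 21 named genes, 16 passed the limit. At day 1, 3 of the 16 were at least 2-fold lower than at 10°C and 2 were higher, against 5.42% and 5.49% of all genes. At day 5, 9 were lower and 1 was higher, against 15.9% and 4.78% of all genes. The strongest drop was that of *acs-5*, with 23.6 FPKM at 20°C and 22.1 at 10°C, then 3.66, 1.58, and 0.814 on days 1, 3, and 5. Its log2 ratio at day 1 over 10°C was -2.56 (95% limits -2.68 to -2.44, counting error only). For *acs-1*, which activates branched-chain fatty acids, the values were 29.0, 41.6, 18.8, 7.43, and 4.24 across the same conditions, with its highest level at 10°C. For *acs-14*, the FPKM was 11.02 at 20°C and 10.7 at 10°C, then 4.00, 2.08, and 1.87 on days 1, 3, and 5.

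A later drop marked *acs-7*, which takes part in the assembly of ascarosides. Its FPKM was 5.63 at 20°C, 7.75 at 10°C, and 6.14 at day 1, but 1.78 at day 3 and 1.41 at day 5. The fasting-induced mitochondrial synthetase *acs-2* had the largest change of the 61 genes toward lower values at the first cooling step, with a log2 ratio of -0.99. Its FPKM was 5.58, 2.76, 2.00, 0.602, and 0.299 from 20°C to day 5. The acetyl-CoA synthetase *acs-19* had 82.9 at 20°C and 92.99 at 10°C, then 52.0, 41.7, and 40.5 on days 1, 3, and 5.

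The synthetases that were higher in the cold followed separate courses. For *acs-17* the FPKM was 4.98 at 20°C and 8.59 at 10°C, then 19.1, 8.404, and 5.65 on days 1, 3, and 5, a single peak with a log2 ratio of 1.14 at day 1 over 10°C. By contrast, *acs-16* stayed up, with 0.754, 0.663, 1.57, 2.40, and 2.40 in the same order, and it was the gene still 2-fold higher at day 5 than at 10°C. It rests on few reads, 270 at day 1 and 112 at 10°C, and fell short of 2-fold at day 1 with a pseudocount of 1 (0.63). The values of *acs-12* were 2.78, 3.36, 5.81, 7.02, and 5.71, which put day 3 at a log2 ratio of 1.04 over 10°C. The most abundant member of the class, *acs-13*, stayed between 106 and 137 in all conditions, and *acs-4* stayed between 98.3 and 129. The *acs-20* gene, related to fatty acid transport proteins and needed for the cuticle barrier, kept to between 2.30 and 3.24, while its relative *acs-22* had 13.1 at 10°C, then 10.8, 6.22, and 3.79 on days 1, 3, and 5. Among the remaining members, *acs-11* stayed between 18.7 and 22.8, whereas *acs-3* had 0.748 at day 5 and 1.76 at 10°C and *acs-21* had 0.351 and 1.01.

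**Figure D2:**
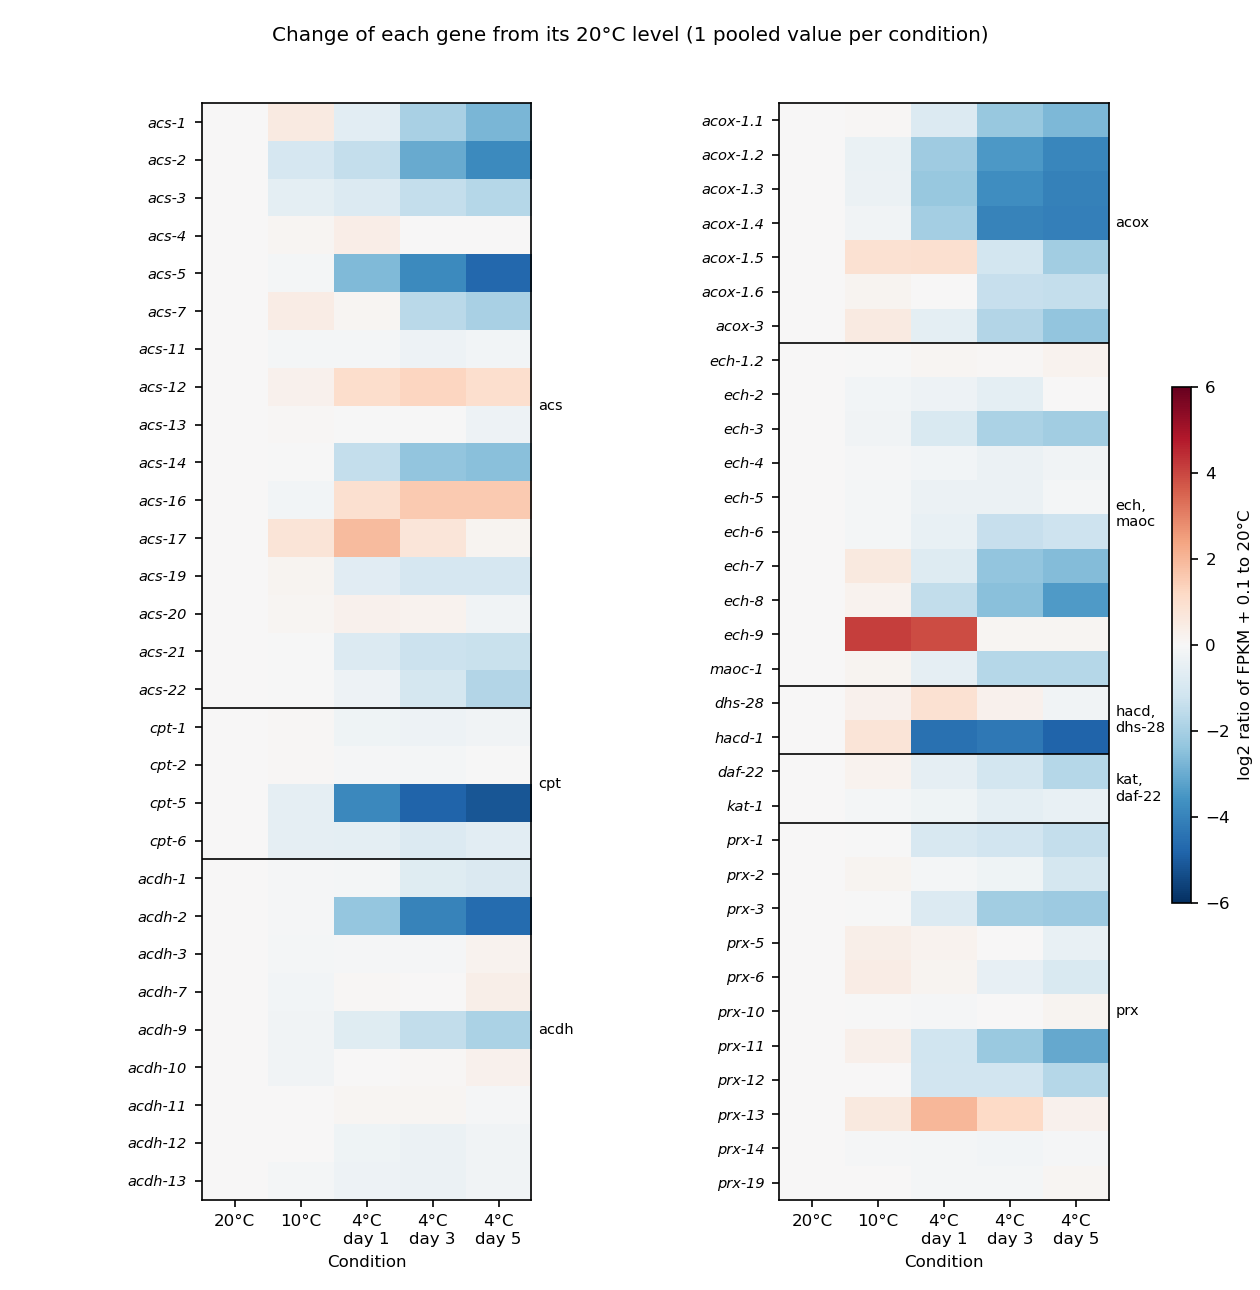
log2 ratio of FPKM + 0.1 to the 20°C value for each of the 61 genes (rows, grouped by step) in the 5 conditions (columns), 1 value per cell, taken as pooled. Blue is lower and red is higher than at 20°C. The oxidases turn toward deeper blue from day 1 to day 5, although *acox-1.5* is red and *acox-1.6* near white at day 1. The gene *ech-9* is strongly red at 10°C and day 1, with a log2 ratio of 4.15 at 10°C.

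Carnitine transfer brings long-chain fatty acids into mitochondria. The genes *cpt-1* and *cpt-2*, named after the enzymes of the outer and the inner mitochondrial membrane, varied little. The FPKM of *cpt-1* was 49.04 at 20°C and 51.1 at 10°C, then 40.6, 39.2, and 42.7 on days 1, 3, and 5, and that of *cpt-2* lay between 30.7 and 34.9. A related gene, *cpt-5* on chromosome V (13873195 to 13875888, forward strand, 8 exons, WBcel235), showed the second largest drop of the 61 genes at day 1. Its FPKM was 5.62 at 20°C (95% Wilson limits 5.28 to 5.97), 3.86 at 10°C (3.59 to 4.15), 0.294 at day 1 (0.227 to 0.381), 0.104 at day 3, and 0.0621 at day 5. These values rest on 1017, 735, 57, 19, and 10 reads. The log2 ratio at day 1 over 10°C was -3.33 (-3.62 to -3.02), and -1.91 with a pseudocount of 1. The last of the class past the limit, *cpt-6*, lay between 2.22 and 4.04, with its highest value at 20°C.

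Acyl-CoA dehydrogenases open the mitochondrial cycle. Of 13 *acdh* genes, 9 passed the limit, and 1 of the 9 was 2-fold lower at day 1 than at 10°C, against 5.42% of all genes. That gene was *acdh-2*, with 16.9 FPKM at 20°C and 16.3 at 10°C, then 3.32, 0.951, and 0.591 on days 1, 3, and 5. All 14 of its annotated transcripts past the limit had log2 ratios between -2.37 and -2.26 at day 1 over 10°C. Reads were counted once for every transcript they overlap, so these ratios are not independent. A slower drop was that of *acdh-9*, with 27.3, 23.7, 16.5, 9.76, and 7.31 from 20°C to day 5. Most of the class did not follow. The FPKM of *acdh-3* was 67.3 at 20°C and 61.9 at 10°C, then 64.7, 64.8, and 77.7 on days 1, 3, and 5. The neighbours *acdh-10* and *acdh-7*, side by side on one strand of chromosome X, had log2 ratios of 0.46 and 0.52 at day 5 over 10°C. Whether these similar genes share reads was not tested. For *acdh-11*, known from work on heat adaptation as a regulator of fatty acid desaturation, all values lay between 15.1 and 16.9. The values of *acdh-12* lay between 5.57 and 7.18, and those of *acdh-13* between 18.0 and 23.1.

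Acyl-CoA oxidases open the peroxisomal cycle and pass electrons to oxygen. All 7 *acox* genes passed the limit, and 4 of them were 2-fold lower at day 1 than at 10°C. From day 1 to day 3, 7 of 7 were 2-fold lower, with ratios from -2.05 to -1.19, and at day 5 all 7 were at least 2-fold below 10°C. Of all genes, 5.42% were lower at day 1 over 10°C, 4.65% at day 3 over day 1, and 15.9% at day 5 over 10°C. Every oxidase had a mean FPKM under 10, and among all genes under that mean the shares were 10.3%, 7.56%, and 28.2%. The summed FPKM of the class was 50.8 at 20°C and 57.5 at 10°C, then 33.5, 10.2, and 6.62 on days 1, 3, and 5. Of these genes, 4 lie head to tail on chromosome I, from 12938649 (start of *acox-1.1*) to 12954003 (end of *acox-1.4*) on the forward strand, with 34 to 343 bases between neighbours (WBcel235). Within this run, the log2 ratio at day 1 over 10°C was -0.88 for *acox-1.1*, -1.74 for *acox-1.2*, -1.93 for *acox-1.3*, and -1.82 for *acox-1.4*. The limits of *acox-1.1* (-0.99 to -0.78) did not meet those of its 3 neighbours, which overlapped each other. Whether these related copies share reads was not tested.

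The FPKM of *acox-1.1* was 13.04 at 20°C and 13.5 at 10°C, then 7.28, 2.61, and 1.95 on days 1, 3, and 5. Its neighbour *acox-1.2* had 7.24, 5.52, 1.58, 0.563, and 0.382 from 20°C to day 5, and *acox-1.3* had 4.92, 3.87, 0.943, 0.283, and 0.201. That of *acox-1.4* was 8.64, 7.52, 2.05, 0.450, and 0.417 in the same order, with most of its drop complete by day 3. The oxidase with the highest mean over the 5 conditions, *acox-1.5* on chromosome III, kept a different time, although *acox-1.1* was higher at 20°C and at day 5. Its FPKM was 7.51 at 20°C, 14.1 at 10°C, and 14.7 at day 1, then 3.47 at day 3 and 1.67 at day 5. It was the single gene of the 61 that was 2-fold lower from day 3 to day 5, with a ratio of -1.01 that lies at the threshold. The FPKM of *acox-3* was 7.57, 10.9, 5.07, 2.17, and 1.37 from 20°C to day 5, with a log2 ratio of -1.09 at day 1 over 10°C that became -0.97 with a pseudocount of 1. The lowest of the class, *acox-1.6*, had 1.87, 2.08, 1.91, 0.658, and 0.640.

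**Figure D3:**
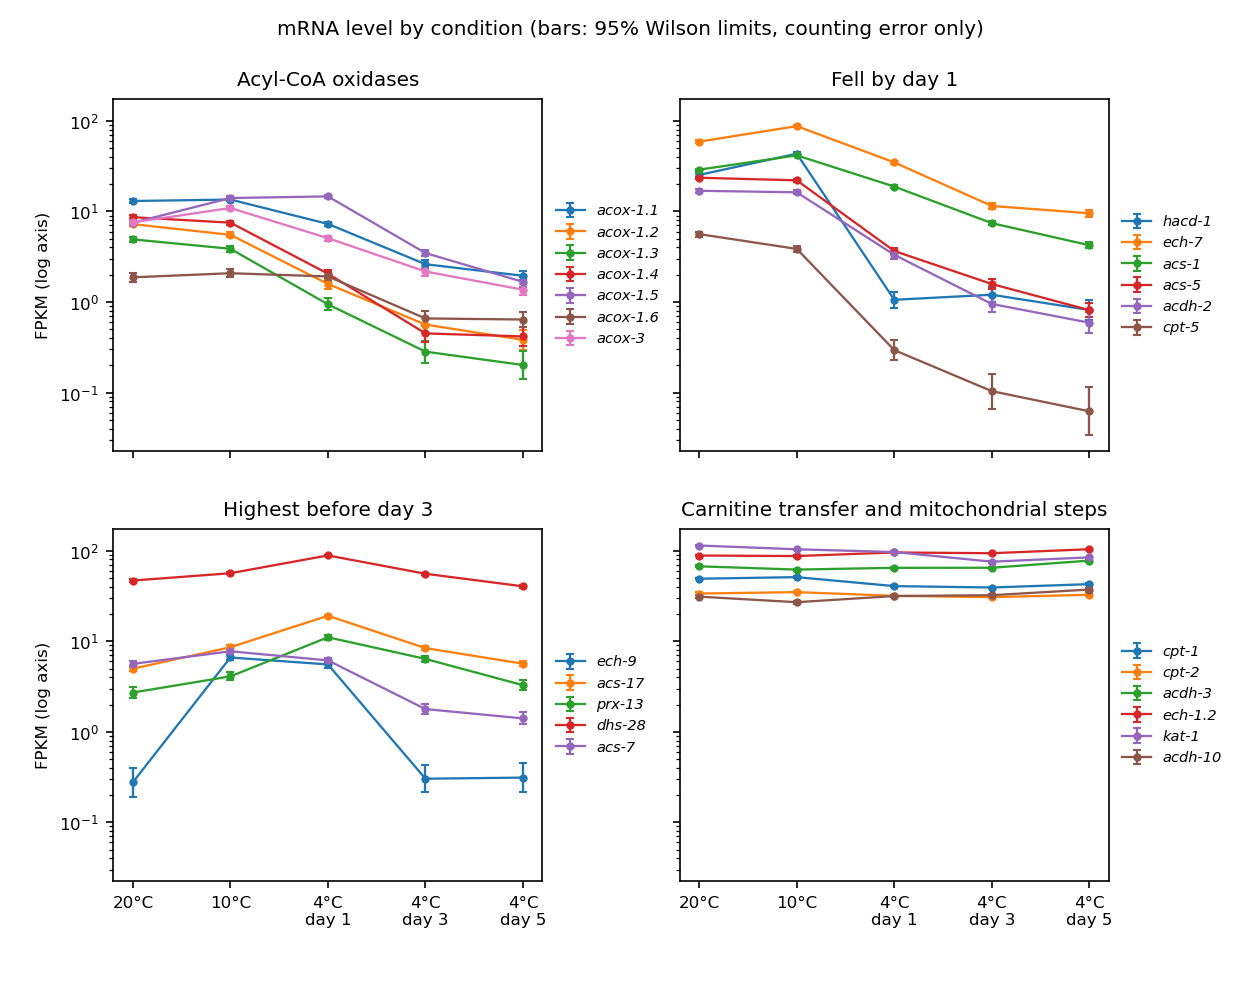
FPKM (log axis) of selected genes in the 5 conditions, with 95% Wilson limits as bars (counting error only). The oxidases reach their lowest values at day 5, *hacd-1* is at 43.4 at 10°C and 1.06 at day 1, and *ech-9* is above 5 at 10°C and day 1 alone. The 6 genes picked for the panel of carnitine transfer and mitochondrial steps vary far less, with *cpt-2* between 30.7 and 34.9. They do not stand for their whole classes. Of the same classes, *cpt-5* and *acdh-2* are in the panel of genes that fell by day 1, and *acdh-9* is not plotted.

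Hydratases add water across the double bond made in the first step. Of 11 *ech* and *maoc* genes, 10 passed the limit, with 2 of them 2-fold lower at day 1 than at 10°C and 6 at day 5. The shares of all genes were 5.42% and 15.9%. The FPKM of *ech-7* was 59.0 at 20°C and 87.6 at 10°C, then 34.8, 11.5, and 9.55 on days 1, 3, and 5. For *ech-8* it was 4.34, 5.05, 1.5, 0.677, and 0.322. Lower values came later for *ech-3*, with 14.2 at 10°C, then 8.598, 4.22, and 3.75 on days 1, 3, and 5. The peroxisomal hydratase *maoc-1*, which acts in ascaroside shortening, had 25.0, 28.1, 16.99, 7.64, and 7.53 from 20°C to day 5. In contrast, *ech-1.2*, the worm gene for the large subunit of the mitochondrial trifunctional protein, had 88.4 at 20°C and 87.3 at 10°C, then 95.7, 93.8, and 104 on days 1, 3, and 5. The values of *ech-4* lay between 53.3 and 67.6, and those of *ech-5* between 18.8 and 24.2. A low-level gene, *ech-2*, had the largest ratio above 0 from day 3 to day 5 (0.62), with 0.847 at day 3 and 1.35 at day 5, and its 20°C value was 1.33.

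A brief rise set *ech-9* apart. It lies 1351 bases from *ech-8* on the reverse strand of chromosome IV (10233636 to 10235274, 8 exons). Its FPKM was 0.278 at 20°C (0.192 to 0.401), 6.62 at 10°C (6.15 to 7.13), 5.55 on day 1 (5.12 to 6.01), 0.303 on day 3 (0.214 to 0.431), and 0.312 on day 5 (0.216 to 0.451). The log2 ratio was 4.15 from 20°C to 10°C and -3.81 from day 1 to day 3, the largest of the 61 genes in each of these steps. In reads, *ech-9* had 28 at 20°C and 703 at 10°C, then 599, 31, and 28 at 4°C. Its neighbour *ech-8* did not share the rise, with a ratio of 0.22 from 20°C to 10°C.

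The second dehydrogenation is represented by *hacd-1* and by the peroxisomal *dhs-28*, which had very different courses. On chromosome V (1460369 to 1461613, forward strand, 4 exons), *hacd-1* had an FPKM of 25.3 at 20°C (24.2 to 26.4), 43.4 at 10°C (42.1 to 44.8), and 1.06 at day 1 (0.863 to 1.297). It was at 1.203 at day 3 and 0.816 at day 5, with 92, 99, and 59 reads at days 1, 3, and 5. The log2 ratio of *hacd-1* at day 1 over 10°C was -5.23 (-5.50 to -4.96), 37.6 times lower on the FPKM + 0.1 scale, and -4.43 with a pseudocount of 1. The FPKM of *dhs-28* was 46.8 at 20°C and 56.4 at 10°C, then 88.7, 55.6, and 40.4 on days 1, 3, and 5, so its ratio at day 1 over 10°C was 0.65 (0.61 to 0.70), under 2-fold. It was the one gene of the oxidase, hydratase, dehydrogenase, and thiolase steps of ascaroside shortening that was higher at day 1 than at 10°C by more than 1.5 times.

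Thiolases cut off the shortened chain. The FPKM of *daf-22*, the peroxisomal thiolase that completes ascaroside side chains, was 19.4 at 20°C and 22.8 at 10°C, then 13.5, 8.94, and 5.90 on days 1, 3, and 5. That of *kat-1*, the conserved mitochondrial thiolase, was 114.1, 104, 96.7, 75.6, and 84.4. The log2 ratio at day 5 over 10°C was -1.93 for *daf-22* and -0.30 for *kat-1*.

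Peroxins, the *prx* genes, build peroxisomes and import their enzymes, with roles known from yeast and mammals. All 11 passed the limit, 2 were 2-fold lower and 1 was 2-fold higher at day 1 than at 10°C, and 6 were 2-fold lower at day 5. Of all genes, 5.42% were lower and 5.49% higher at day 1, and 15.9% were lower at day 5. The gene for the division factor *prx-11* had 8.31 FPKM at 20°C and 10.3 at 10°C, then 3.57, 1.67, and 0.899 on days 1, 3, and 5. It is a gene with 1 exon on chromosome I (12971615 to 12972259, forward strand). Among the genes for RING-finger peroxins, *prx-12* had 2.13, 2.16, 0.892, 0.909, and 0.582 (log2 ratio -1.19 at day 1 over 10°C, or -0.74 with a pseudocount of 1), *prx-2* had 1.63, 1.84, 1.49, 1.34, and 0.730, and *prx-10* lay between 11.1 and 12.97 in all conditions. Exons of ZK809.8 on the opposite strand cover 41.5% of the bases of *prx-2*, and the use of strand in counting is not given in the sources used here.

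The docking complex at the peroxisome membrane holds the products of *prx-13* and *prx-14*, whose mRNAs diverged. For *prx-13*, the FPKM was 2.71 at 20°C and 4.09 at 10°C, then 11.1, 6.38, and 3.27 on days 1, 3, and 5, with a log2 ratio of 1.41 (1.24 to 1.58) at day 1 over 10°C. For *prx-14*, it was 64.05, 61.5, 59.1, 56.3, and 61.0. Of the genes for membrane assembly, *prx-3* had 3.52, 3.50, 1.92, 0.743, and 0.709, whereas *prx-19* lay between 37.7 and 44.9. The receptor gene *prx-5* had 3.67 at day 5 and 6.32 at 10°C, and the genes *prx-1* and *prx-6*, whose products recycle that receptor, had ratios of -1.38 and -1.33 at day 5 over 10°C.

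Grouped by site, the 21 peroxisomal genes (*acox*, *maoc-1*, *dhs-28*, *daf-22*, and *prx*) had median log2 ratios over 10°C of -0.72 on day 1 and -1.73 on day 5, with 15 of 21 at least 2-fold lower at day 5. The 15 genes past the limit of the carnitine and mitochondrial set (*cpt*, *acdh*, *ech-1.2*, and *kat-1*) had medians of -0.10 and -0.13, with 3 of 15 lower at day 5, namely *cpt-5*, *acdh-2*, and *acdh-9*. Of all genes, 15.9% were at least 2-fold lower at day 5 than at 10°C. Both sets were drawn up after the values were seen, and the contrast depends on which genes were placed in them. Neither set holds the synthetases, *hacd-1*, or the other *ech* genes, among them *acs-2* (-2.84 at day 5 over 10°C), *hacd-1* (-5.57), *ech-3* (-1.90), *ech-6* (-1.15), *ech-7* (-3.18), *ech-8* (-3.61), and *ech-9* (-4.03). The mitochondrial set was also the more abundant, with a summed FPKM of 889 at 10°C against 312 for the peroxisomal set. Of the 889, 410 came from *acdh-1*, a gene of the propionate shunt. Over the 61 genes, 18 (29.5%) kept their highest condition under 1.5 times their lowest on the FPKM + 0.1 scale, against 49.8% of all genes. These 18 were *acs-4*, *acs-11*, *acs-13*, *acs-20*, *cpt-1*, *cpt-2*, *acdh-3*, *acdh-7*, *acdh-10*, *acdh-11*, *acdh-12*, *acdh-13*, *ech-1.2*, *ech-4*, *ech-5*, *prx-10*, *prx-14*, and *prx-19*.

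Other genes of the pathway were taken from a list of 27, of which 26 passed the limit and *nhr-114* did not. The median log2 ratio of the 26 was -0.17 at day 1 and -0.55 at day 5, both over 10°C, and that of all genes was -0.09 and -0.10. At day 1 over 10°C, 3 were 2-fold lower, against 5.42% of all genes, and 1 was 2-fold higher, against 5.49%. At day 5 over 10°C, 10 were lower, against 15.9%, and none was higher, against 4.78%. Among peroxisomal genes of the list, the catalase gene *ctl-2* had 17.1 FPKM at 20°C and 20.7 at 10°C, then 18.8, 7.50, and 4.82 on days 1, 3, and 5. The sterol carrier gene *nlt-1* had 30.8, 28.4, 18.3, 6.65, and 7.11. Of the listed ABC transporter genes, *pmp-1* to *pmp-5*, 2 diverged most at day 1. From 20°C to day 5, *pmp-5* was at 21.4, 11.9, 2.31, 1.27, and 0.786 and *pmp-4* at 2.56, 3.93, 12.2, 7.30, and 2.22. At day 5 over 10°C, the log2 ratios were -1.43 for *pmp-1*, -1.81 for *pmp-2*, -0.63 for *pmp-3*, -0.80 for *pmp-4*, and -3.76 for *pmp-5*. The fission gene *drp-1*, which also serves mitochondria, stayed between 49.1 and 53.1. The glyoxylate cycle gene *icl-1* had 43.2 at 10°C, then 54.6, 19.6, and 13.8 on days 1, 3, and 5. The electron transfer gene *let-721* lay between 55.3 and 62.5.

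Propionate, left over from odd-numbered and branched chains, is broken down by a vitamin B12-dependent pathway or by a β-oxidation-like shunt that includes *acdh-1* and *ech-6*. The shunt genes were unequal. The FPKM of *acdh-1* was 431 at 20°C and 410 at 10°C, then 395, 259, and 238 on days 1, 3, and 5, and that of *ech-6* was 263, 245, 192, 99.9, and 111. For *hach-1*, it was 106, 107, 71.0, 45.6, and 40.7. The dehydrogenase gene *hphd-1* had the deepest drop, with 84.7, 81.2, 40.4, 9.45, and 7.01, a log2 ratio of -3.52 at day 5 over 10°C. The last gene of the shunt, *alh-8*, read on a transcript of 342 bases, lay between 193 and 259. In the B12-dependent pathway, *pcca-1*, *pccb-1*, *mce-1*, *mmcm-1*, and *mmaa-1* had ratios between -0.58 and 0.43 at day 5 over 10°C, none past 2-fold.

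**Figure D4:**
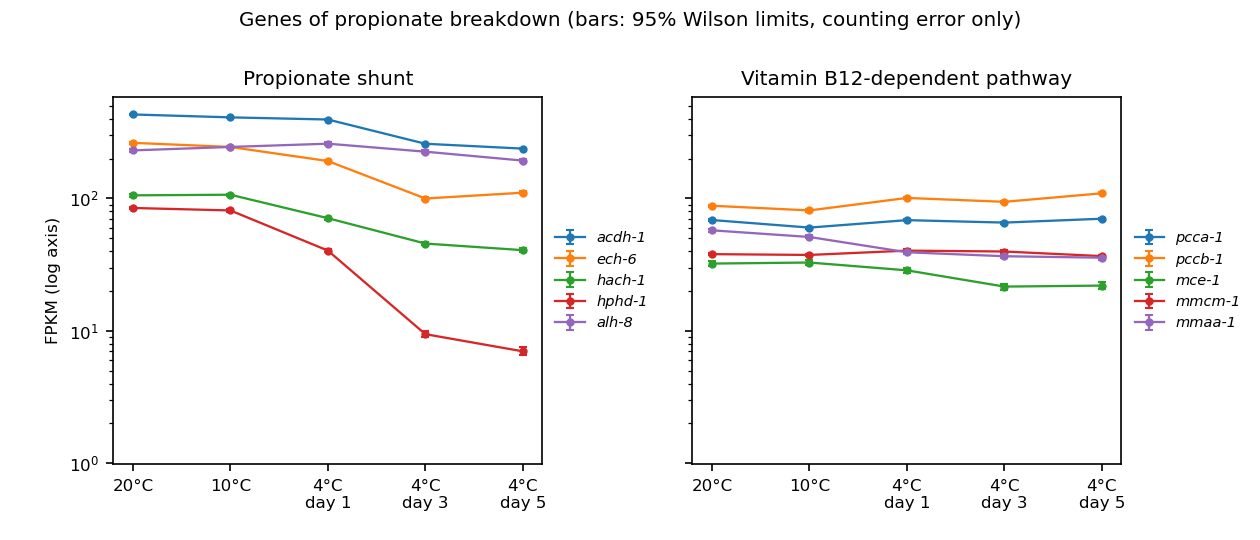
FPKM (log axis) of genes of the propionate shunt (left) and of the vitamin B12-dependent pathway (right) in the 5 conditions, with 95% Wilson limits as bars (counting error only). On the left, *hphd-1* is at 81.2 at 10°C and 7.01 at day 5 and *alh-8* is at 245 and 193, and on the right no gene changes 2-fold.

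Among genes for regulators, *nhr-49*, a nuclear hormone receptor that governs β-oxidation, lay between 37.4 and 42.5. The receptor gene *nhr-68*, which activates the propionate shunt, had 9.32 FPKM at 20°C and 9.51 at 10°C, then 2.31, 1.68, and 0.541 on days 1, 3, and 5. Its partner in that role, *nhr-10*, stayed between 5.35 and 6.26. The FPKM of *nhr-80* was 1.93 at 10°C, 0.934 at day 1, and 0.800 at day 5, and that of *mdt-15*, a Mediator subunit gene of fat metabolism, was 21.0 at 10°C, 22.8 at day 1, and 15.3 at day 5.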

How the data were processed

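Per the labels, total RNA of whole animals was made into libraries with the ScriptSeq v2 kit. The authors ran the ribo-seq pipeline of ORFik, which trimmed adapters with fastp (0.23.4), removed contaminants such as rRNA, mapped reads with STAR (2.7.11b) to WBcel235, and estimated expression with DESeq2 (1.42.1). They deposited FPKM for 31865 transcripts of 19985 genes, with 1 column per condition. Whether and how replicates were pooled, the annotation release, and the use of strand are not given in the sources used here. A further column, 1 in number and named for 25°C, fits none of the sample labels and was left out.

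Each FPKM was multiplied by exon length in Ensembl release 115, and 100% of values in each column were whole numbers of reads within 0.01. Reads on transcripts ranged from 70741449 at day 5 to 85103831 at day 1, counted once for every transcript they overlap. Wilson limits at 95% come from these reads, those of ratios combine the limits of both values, and all cover counting error only, since PCR copies are not independent molecules. At the floor of 3 counts, a transcript of 1 kb would have an FPKM of 0.0353 to 0.0424. Among the 61 genes, no value rests on fewer than 10 reads.

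A change is the log2 ratio of FPKM + 0.1, called at 2-fold, for genes that reached 1 FPKM in any condition. A limma fit was planned for replicate columns. As the table has 1 column per condition, it was not run and no p-value is given. Genes with full values were those changed 2-fold at day 1 over 10°C, the most abundant of each step, and the largest rise and fall of each other step. Others named were chosen after their values were seen. The members and lists were chosen with earlier results of these data known. Alternatives were pseudocounts of 1 and 0.01, a filter at an FPKM of 5 or none, ratios centred on the median of all genes, sums over transcripts, and a 1.5-fold threshold. The procedure was run on simulated data with planted changes and counting error only. As these data hold no variation between libraries, they cannot show how often a 2-fold call in the real data is false. Computation used pandas 2.3.3 and numpy 2.4.6 in Python 3.11.15, with scipy 1.17.1 for limits and matplotlib 3.10.9 for plots. Sequences were not analysed here.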

Additional observations from a re-analysis of the deposited data

How the results depend on the processing

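No paired analysis was possible because the table has 1 value per condition and its columns carry no replicate numbers. Leaving out a replicate was not possible for the same reason. The counts of genes 2-fold lower at day 1 over 10°C (12 to 15) and at day 5 over 10°C (24 to 35) stayed within 1.5 times of 14 and 33 under both pseudocounts, both filters, centred ratios, and sums over transcripts. They are out of 61 genes, but out of 48 with the filter at an FPKM of 5, 73 with no filter, and 63 with sums. The shares of all genes in these settings also moved, from 2.17% to 5.91% at day 1 and from 8.92% to 16.6% at day 5. With a pseudocount of 1, 10 genes were lower at day 3 over day 1 (2.26% of all genes) and 0 at day 5 over day 3 (1.53% of all genes), since a larger pseudocount shrinks the ratios of genes with low values. With a pseudocount of 0.01, 1 gene was lower from 20°C to 10°C and 2 were lower from day 3 to day 5, against 1.17% and 6.19% of all genes. With the filter at an FPKM of 5, 0 genes were higher at day 5 over 10°C, since *acs-16* does not reach that level, against 4.02% of all genes. At a 1.5-fold threshold, 4 of 61 genes were higher and 1 lower from 20°C to 10°C, against 3.03% and 3.11% of all genes. At day 1 over 10°C, 5 were higher and 22 lower, against 9.57% and 11.8%. From day 1 to day 3, 31 were lower, against 10.7%. From day 3 to day 5, 1 was higher and 12 lower, against 1.47% and 14.1%. At day 5 over 10°C, 2 were higher and 36 lower, against 10.9% and 25.4%. No named gene past 2-fold at day 1 changed direction. Among the settings, only sums over transcripts could have reversed such a gene. A pseudocount cannot reverse a ratio, and centring moved the ratios of day 1 over 10°C by no more than 0.09. With a pseudocount of 1, *acox-3* (-0.97), *prx-12* (-0.74), and *acs-16* (0.63) no longer passed 2-fold at day 1. Values have no replicate check, and a difference between conditions cannot be told apart from one between the libraries behind the columns.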

Other observations

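The 12 genes under the limit of 1 FPKM were 5 synthetases, *acs-6*, *acs-9*, *acs-10*, *acs-15*, and *acs-18*, together with *cpt-3*, *cpt-4*, *acdh-4*, *acdh-5*, *acdh-6*, *acdh-8*, and *ech-1.1*. Of these, *cpt-4* had 0.720 FPKM at 20°C and 0.746 at 10°C, then 0.875, 0.347, and 0.213 on days 1, 3, and 5, a log2 ratio of -1.43 at day 5 over 10°C. Another, *acdh-6*, had 0.159 at day 5 (0.0966 to 0.263) and 0.521 at 10°C (0.403 to 0.673). The paralog *ech-1.1* stood far below *ech-1.2*, with 0.707 at 20°C and 0.461 at 10°C, then 0.370, 0.240, and 0.267 on days 1, 3, and 5.

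Neighbouring genes of these families did not always move together. On chromosome IV, *cpt-2* and *prx-14* lie 321 bases apart on the forward strand, and both had ratios near 0 at day 5 over 10°C (-0.10 and -0.01). On chromosome II, *maoc-1* and *acdh-12* lie 1505 bases apart on opposite strands, with ratios of -1.88 for *maoc-1* and -0.23 for *acdh-12* at day 5 over 10°C. The 22 genes with several transcripts past the limit kept one course across them, but reads were counted for every transcript they overlap. Likeness between transcripts of a gene is thus no separate support. For *acs-1*, the 3 transcripts had ratios from -3.29 to -3.27 at day 5 over 10°C, and for *ech-9* the longer transcript had 0.213 at 20°C and 5.21 at 10°C, then 4.34, 0.248, and 0.240 on days 1, 3, and 5.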
